A study of Metroxylon sagu with 6 samples.

Results

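The Unigenes matched to the Rubisco small subunit and to Rubisco activase were followed through leaf libraries of sago palm. Unigenes are transcripts that were put together from the reads alone, with no genome behind them. A Unigene was taken as a member when its SwissProt cell named the small chain of ribulose bisphosphate carboxylase or the activase of that enzyme, and 13 of the 99933 Unigenes listed in the 6 libraries met this rule. There was 1 small subunit Unigene, and there were 12 activase Unigenes, of which 3 belonged to the contig cluster CL2754, 8 to the cluster CL578 and 1 stood outside any cluster. The libraries came from leaves of 3 trunking palms (ST1, ST4 and ST5), which form a stem and are the control, and of 3 non-trunking palms (SN7, SN8 and SN9), which have not formed one. All 6 palms grew on peat soil of a plantation. The sources used here name no treatment of them and do not give their genotype, age or hour of sampling. The palms of each phenotype were sampled at a place of their own, so phenotype and place cannot be told apart. Each library is 1 palm. The groups follow the sample labels and the study's sample table, while the study's data accessibility entry words the samples of the non-trunking palms as trunking.

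Rubisco is the enzyme that fixes carbon dioxide in the Calvin cycle. Its large subunit is encoded in the plastid and its small subunit in the nucleus, and the small subunit is imported into the chloroplast and joins the large subunit with the help of chaperonins. Rubisco loses activity when sugar phosphates stay bound in its active site, and activase, a nuclear-encoded ATPase of the AAA+ type, frees the site again. Transcripts of both proteins are among the most abundant ones of green leaves, are induced by light, and in many plants follow the time of day. Many plants make more than one form of activase from 1 gene by alternative splicing.

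The libraries held between 17927176 and 18492907 expected counts, and the members took from 261767 of them in ST5 to 605635 in SN7. The scaling factors of the TMM method, which correct for the composition of a library, ran from 0.824 in SN7 to 1.13 in SN9. Green leaf markers were abundant in all palms: 102 Unigenes of photosystems, antenna, oxygen evolution and plastocyanin summed to 20306 to 39153 FPKM (fragments scaled by Unigene length and library total) in trunking palms and to 24472 to 43790 FPKM in non-trunking palms. Guard cell markers (4 Unigenes, matched to FAMA or to EPIDERMAL PATTERNING FACTOR-like protein 2) summed to 18.8 to 26.7 FPKM in trunking and 19.2 to 23.5 FPKM in non-trunking palms. The second name was caught by its words, and its cell type was not checked. Markers of xylem and fibre (8 Unigenes) summed to 12.3 to 15.6 and 8.91 to 21.4 FPKM, and those of dividing cells (19 Unigenes) to 98.7 to 133 and 115 to 124 FPKM. Most of the dividing cell sum came from Unigenes matched to cyclin-B1-2, with CL8342.Contig2_All alone at 53.8 to 81.5 FPKM. The DNA replication licensing factors stayed at or below 1.65 FPKM. The words fixed for phloem matched 0 Unigenes. In bulk leaf RNA, a change in the share of a cell type and a change in RNA per cell cannot be told apart.

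The small subunit Unigene, CL3826.Contig1_All, is 2191 nt long and has its best SwissProt match in the small chain of the banana *Musa acuminata* (E-value 3.0e-84). It stood at 3923 FPKM in ST1, 7117 FPKM in ST4 and 3787 FPKM in ST5, and at 10328 FPKM in SN7, 4732 FPKM in SN8 and 7632 FPKM in SN9. It had the highest FPKM of all Unigenes in 5 of the 6 palms, and ranked 3 in ST1, where a Unigene matched to a mannan endo-1,4-beta-mannosidase led. SN7 was the highest palm and ST5 the lowest, and the groups overlapped, since ST4 lay above SN8. The Unigene alone took 0.806% of the counts of ST5 (95% Wilson interval 0.802 to 0.810) and 2.20% of those of SN7 (2.198 to 2.211). These intervals cover counting error only, which was small beside the spread between palms. Small subunit genes form families of near-identical copies in plants, so this 1 Unigene may hold reads of several genes.

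Between the groups, the level of the small subunit differed by less than the spread between palms. In CPM, counts scaled to a common library total with the TMM factors, it was 10257 ± 3152 CPM in trunking and 17185 ± 8692 CPM in non-trunking palms (SD, n = 3 each). The log2 fold change, taken throughout as non-trunking minus trunking, was 0.74 ± 0.59 (SE; quasi-likelihood test of edgeR, p adjusted over all Unigenes tested = 0.734). Its 95% interval reached from a fold of 0.630 to one of 4.46, so neither a small decrease nor a large increase lay outside it. Without SN7 the log2 fold change was 0.27, and without SN8 it was 1.02. Within the trunking palms alone the highest FPKM was 1.88 times the lowest, within the non-trunking palms 2.18 times, while the mean FPKM of the non-trunking palms was 1.53 times that of the trunking palms.

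**Figure D1:**
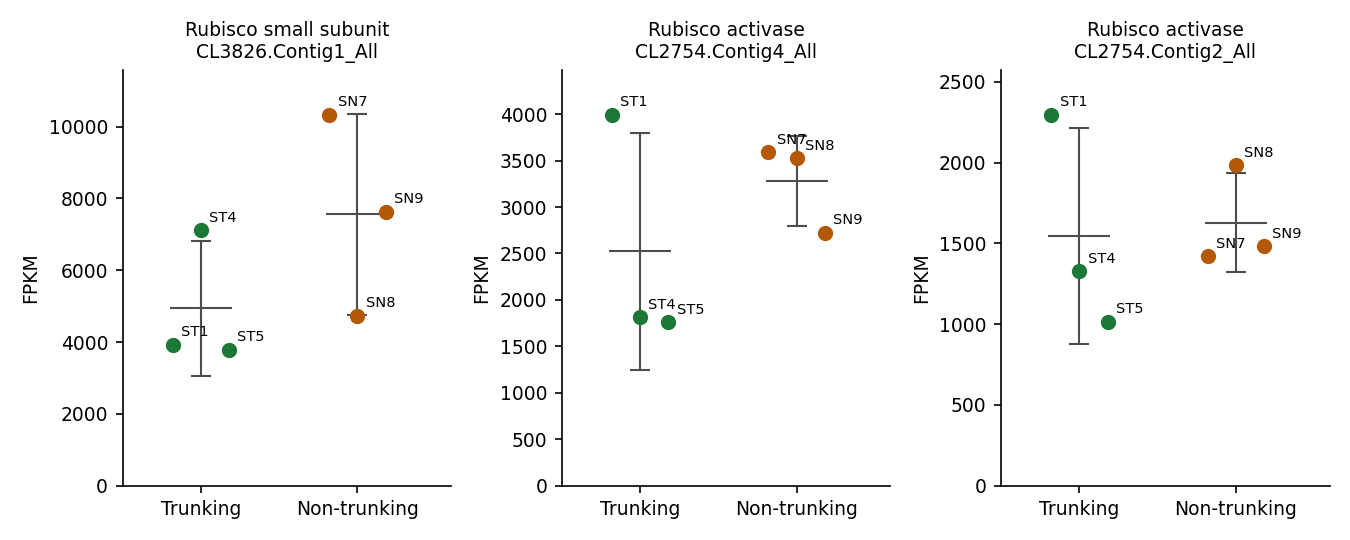
FPKM (vertical axes, from 0) of the small subunit Unigene and of the 2 abundant activase Unigenes in each palm, with points for palms and bars for the mean and SD of 3 palms. The groups overlap in all 3 panels: SN7 leads for the small subunit (10328 FPKM), ST1 for both activase Unigenes (3993 and 2296 FPKM).

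Almost all activase transcript came from 2 contigs of the cluster CL2754. CL2754.Contig4_All (2234 nt) is matched to activase 1 of the creosote bush *Larrea tridentata* (E-value 5.9e-237), and CL2754.Contig2_All (2268 nt) to activase 2 of the same plant (E-value 3.6e-221). In the nucleotide database both are matched to 1 oil palm gene, as its transcript variants X1 and X2. The 8 contigs of CL578 together gave between 0.400% and 0.896% of the summed activase FPKM of a palm.

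CL2754.Contig4_All stood at 3993 FPKM in ST1, 1812 FPKM in ST4 and 1760 FPKM in ST5, and at 3592 FPKM in SN7, 3523 FPKM in SN8 and 2725 FPKM in SN9. By FPKM, ST1 was the highest palm and ST4 and ST5 were the lowest, with the 3 non-trunking palms between them. In TMM-scaled CPM, SN7 (9539 CPM) was above ST1 (9021 CPM). Its rank by FPKM was 2 in ST1, 14 in ST4, 8 in ST5 and 4 in each non-trunking palm. The means were 5505 ± 3048 CPM in trunking and 7507 ± 2123 CPM in non-trunking palms (SD, n = 3 each), and the log2 fold change was 0.45 ± 0.55 (SE, edgeR adjusted p = 0.837). The 95% interval of the fold was 0.549 to 3.39. This value turned on ST1: the log2 fold change was 1.01 without it, against 0.21 without ST4, 0.25 without ST5 and 0.24 without SN7.

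CL2754.Contig2_All stood at 2296 FPKM in ST1, 1329 FPKM in ST4 and 1014 FPKM in ST5, and at 1420 FPKM in SN7, 1982 FPKM in SN8 and 1485 FPKM in SN9. ST1 was again the highest palm and ST5 the lowest. The means were 3411 ± 1623 CPM in trunking and 3718 ± 733 CPM in non-trunking palms (SD, n = 3 each). Its log2 fold change was 0.12 ± 0.47 (SE, edgeR adjusted p = 0.957), and the direction turned without ST4 (-0.03), ST5 (-0.10) or SN8 (-0.01), while it was 0.59 without ST1. With the counts of all contigs of CL2754 summed, the log2 fold change was 0.33 (edgeR adjusted p = 0.860).

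The balance between both abundant contigs separated the groups of palms, by a narrow margin. The FPKM of Contig2 divided by that of Contig4 was 0.575 in ST1, 0.733 in ST4 and 0.576 in ST5, and 0.395 in SN7, 0.563 in SN8 and 0.545 in SN9. All 3 trunking palms thus lay above all 3 non-trunking palms, with ST1 and ST5 only just above SN8. The log2 difference was -0.33, a fold of 0.793, with an exact permutation p of 0.1 (two-sided), which is the smallest p that 3 palms against 3 allow. This ratio was chosen after its values were seen. RSEM divides the fragments that fit both contigs between them by estimate, and the error of that division is not in these values. Leaving out a palm kept the log2 difference between -0.43 and -0.17, the last without SN7.

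The third contig of the cluster, CL2754.Contig6_All (995 nt), is also matched to activase 2 of *Larrea tridentata* but was rare. It had 6 fragments in ST1 and 1 each in ST4 and ST5, and 20 in SN7 and 5 each in SN8 and SN9, which was too few to pass the filter on low counts. The activase fragment Unigene54082_All (205 nt, matched to activase of apple) was listed only in SN7, with 8 fragments, and in SN9, with 1. The filter removed it too, so 11 of the 13 members were tested.

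The contigs of CL578, between 1346 and 2036 nt long, were rare transcripts and were set apart by their annotation. Their SwissProt E-values, matched to activase of rice or maize, lay between 8.2e-93 and 9.3e-80, weaker than those of CL2754. In the KOG column, which cites Arabidopsis loci, the 4 other activase Unigenes were matched to At2g39730, the Arabidopsis activase gene, whereas all 8 contigs of CL578 were matched to another locus, At1g73110. The nucleotide column names activase for all 12 activase Unigenes, CL578 included. The InterPro column places 6 of the 8 contigs of CL578 in the family PTHR32429, as it does the 4 other activase Unigenes, and gives the other 2 the general AAA ATPase domain PF00004. Across all 12, the KOG and KEGG words differ from the name: the KOG cell of all 12 names a 26S proteasome ATPase (RPT4), and the KEGG cell of 11 names ribosomal protein S16e. A search by KEGG or KOG words would therefore not find activase in these files under its own name.

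Summed over its contigs, CL578 gave 25.4 FPKM in ST1, 28.4 FPKM in ST4 and 19.98 FPKM in ST5, and 25.4 FPKM in SN7, 22.1 FPKM in SN8 and 34.7 FPKM in SN9. These sums varied 1.74-fold over the palms, where the summed activase of CL2754 varied 2.27-fold. The most abundant contig was CL578.Contig5_All, with 7.02 to 9.33 FPKM in trunking and 6.75 to 12.5 FPKM in non-trunking palms. Its log2 fold change was 0.33 ± 0.27 (SE, edgeR adjusted p = 0.738). CL578.Contig1_All reached 3.12 to 7.31 FPKM in trunking and 3.31 to 8.02 FPKM in non-trunking palms, CL578.Contig3_All 2.93 to 5.87 and 2.42 to 6.09 FPKM, CL578.Contig6_All 3.08 to 3.69 and 1.82 to 3.39 FPKM, and CL578.Contig2_All 1.55 to 2.81 and 2.02 to 3.05 FPKM. The other 3 contigs stayed at or below 1.36 FPKM in every palm, with CL578.Contig7_All between 0.13 and 1.04 FPKM. CL578.Contig4_All was not listed in SN7 and CL578.Contig8_All was not listed in ST5, where they were taken as 0. Over the 8 contigs the log2 fold changes lay between -0.22 and 0.71, with 6 above 0, and the adjusted p between 0.738 and 0.979.

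Among the 11 tested members, 0 passed an adjusted p of 0.05 in the edgeR test, as did 0.0% of the 45928 Unigenes tested. At an unadjusted p under 0.05 there were also 0 members, where 9.85% of all Unigenes tested passed, 5.43% higher in non-trunking palms and 4.43% lower. DESeq2 gave 0 members at either threshold, where an unadjusted p under 0.05 went to 6.52% of all Unigenes with a p and an adjusted p under 0.05 to 2.22% of those with an adjusted p. In 0 of the 11 did the groups of palms fail to overlap on the CPM scale, against 17.3% of all Unigenes tested (8.71% higher and 8.55% lower). The log2 fold change was above 0 in 9 members and below 0 in 2, with a median of 0.29, and above 0 in 51.4% of all Unigenes tested, with a median of 0.02. Contigs of 1 cluster share fragments, so the members are not independent of each other.

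**Figure D2:**
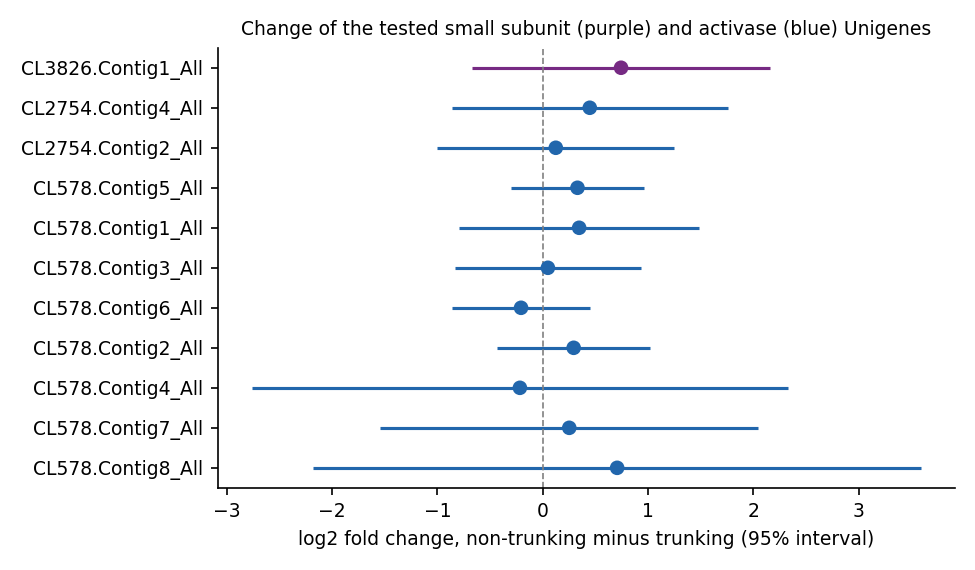
Log2 fold change (horizontal axis, non-trunking minus trunking) of the 11 tested members with 95% intervals from edgeR's quasi-likelihood fit, ordered by mean FPKM with the highest at the top. Every interval includes 0, and the widest belong to the rare contigs CL578.Contig8_All and CL578.Contig4_All.

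The ratio of small subunit to activase varied more within each group than between the groups. The FPKM of the small subunit divided by the summed FPKM of the 12 activase Unigenes was 0.621 in ST1, 2.25 in ST4 and 1.36 in ST5, and 2.05 in SN7, 0.856 in SN8 and 1.80 in SN9. By FPKM, ST1 (trunking) and SN8 (non-trunking) had more activase than small subunit, and the other 4 palms had less. Which protein leads within a palm depends on the assembled length of the small subunit Unigene (2191 nt). That length was not checked against the transcript. The highest ratio was 3.62 times the lowest. The log2 difference between the groups was 0.25 (exact permutation test, two-sided, p = 0.7) and -0.25 without ST1. The summed activase level alone had a log2 difference of 0.36 (exact permutation p = 0.4), which was 0.72 without ST1, 0.22 without ST4 and 0.13 without ST5. The level of the small subunit had one of 0.61 (exact permutation p = 0.2), which was 0.35 without SN7.

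**Figure D3:**
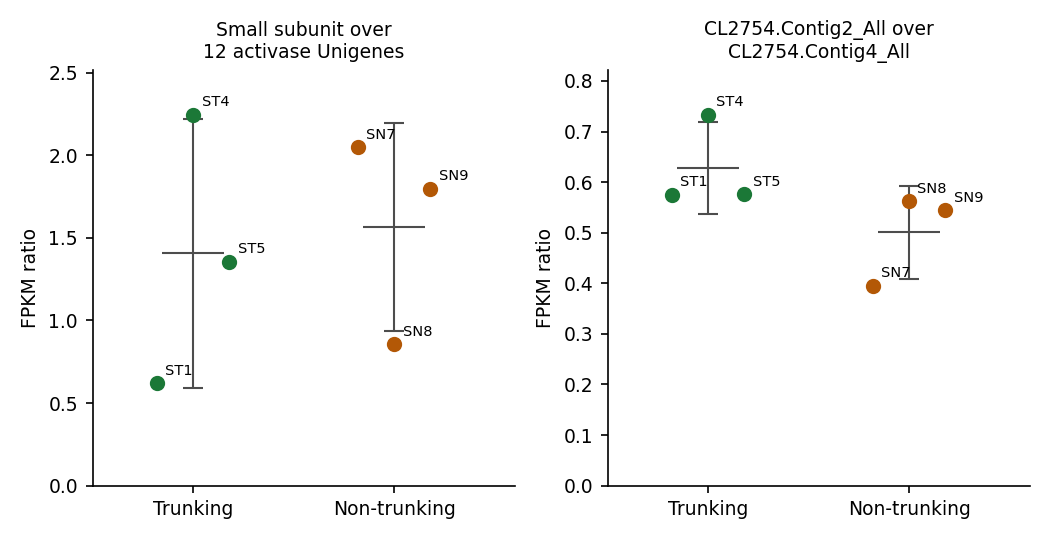
Ratios of FPKM in each palm (vertical axes, from 0), with points for palms and bars for the mean and SD of 3 palms. The ratio of small subunit to activase overlaps widely between the groups (0.621 to 2.25 in trunking palms), while the ratio of Contig2 to Contig4 of activase is at least 0.575 in trunking and at most 0.563 in non-trunking palms.

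The Unigenes whose levels ran most like those of the small subunit were sought over all palms. Likeness was Pearson's r on log2(FPKM + 1) over the 6 palms, among 8882 Unigenes with a SwissProt match and a mean of at least 10 FPKM. It is given as a description, since the 6 points share the differences between libraries. The 5 Unigenes of highest r were the 10 kDa chaperonin 1 of the chloroplast, a co-chaperonin (Unigene10395_All, r = 0.994), the H protein 3 of the glycine cleavage system, which works in photorespiration (Unigene363_All, r = 0.993), peroxiredoxin Q (Unigene19794_All, r = 0.993), the chloroplast stem-loop binding protein of 41 kDa b (CL7060.Contig2_All, r = 0.992) and a ribose-5-phosphate isomerase 3, an enzyme of the Calvin cycle (CL6798.Contig1_All, r = 0.991). For example, the H protein stood at 56.7, 104 and 53.8 FPKM in ST1, ST4 and ST5 and at 182, 70.0 and 135 FPKM in SN7, SN8 and SN9, high in the same palms as the small subunit.

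For CL2754.Contig4_All the 5 Unigenes of highest r were the cytosolic 60S ribosomal proteins L18a-2 (Unigene13577_All, r = 0.992) and L32-1 (CL402.Contig1_All, r = 0.979), the splicing factor SR34 (CL10545.Contig1_All, r = 0.992), an E3 ubiquitin ligase PQT3-like (CL4726.Contig7_All, r = 0.970) and a Unigene matched to vegetative cell wall protein gp1 (CL5686.Contig4_All, r = 0.968). The range of these Unigenes was narrower than that of activase. L18a-2 lay between 26.5 FPKM in ST4 and 35.2 FPKM in ST1, where activase lay between 1760 and 3993 FPKM.

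**Figure D4:**
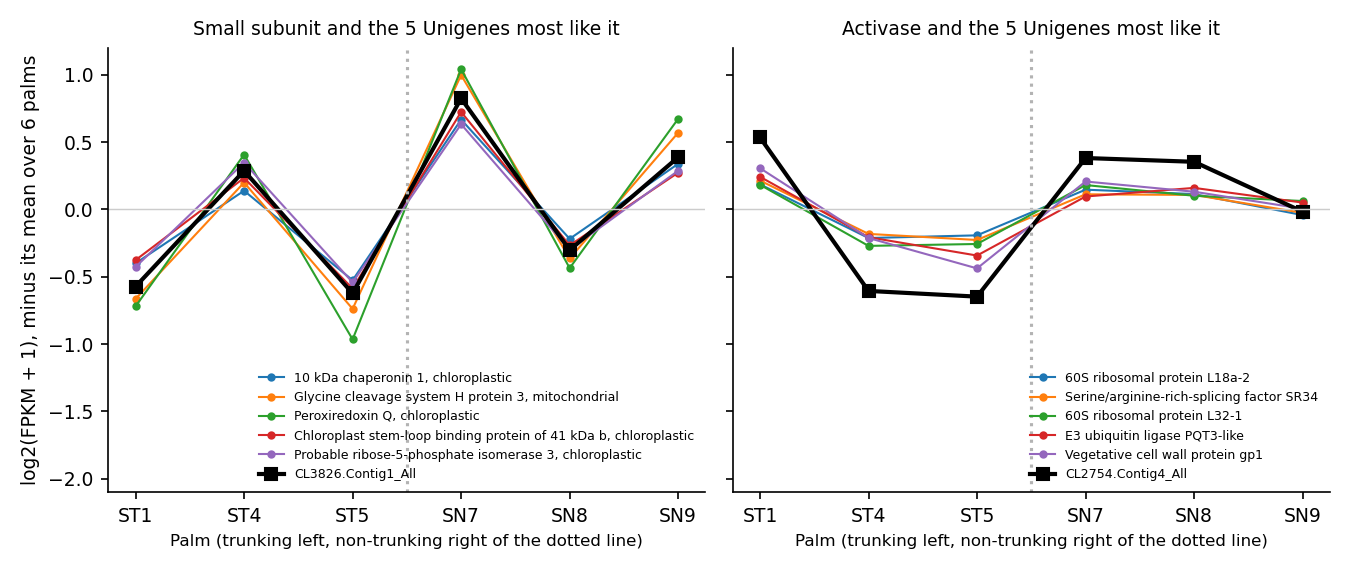
Log2(FPKM + 1) minus its mean over the 6 palms (vertical axis) for the small subunit (left) and CL2754.Contig4_All (right), each with the 5 Unigenes of highest Pearson's r. The small subunit and its companions peak in SN7 and dip in ST1, ST5 and SN8; activase is highest in ST1, and its companions follow it with a smaller range.

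Genes around Rubisco were read from lists of SwissProt words, described here by counts and medians. Whether each matched Unigene serves Rubisco or the pathway of its list was not checked. Of the 60 Unigenes of Rubisco assembly and upkeep, 48 were tested. At an unadjusted p under 0.05, non-trunking palms had more of 3 Unigenes and less of 5 (16.7% of those tested, against 9.85% of all Unigenes), and the median log2 fold change was -0.08, against 0.02 over all Unigenes. The Unigenes that were lower included CL823.Contig1_All, CL823.Contig2_All and CL823.Contig3_All, contigs of the same cluster. Without ST5, 4 of the list passed (3275 of 49129 over all Unigenes tested), and 4 when counts were summed per cluster (2817 of 25629). The most abundant was the alpha subunit of the Rubisco-binding chaperonin (Unigene9627_All), at 113, 111 and 144 FPKM in ST1, ST4 and ST5 and 93.0, 70.5 and 97.2 FPKM in SN7, SN8 and SN9, with a log2 fold change of -0.43 (edgeR adjusted p = 0.684). The smallest p was that of a chaperonin 60 subunit beta 4 (CL823.Contig1_All), a chaperonin subunit of the chloroplast, with 20.6 to 33.1 FPKM in trunking and 2.68 to 5.40 FPKM in non-trunking palms (edgeR adjusted p = 0.161). The large subunit itself, on the 6315 nt Unigene18930_All, stood at a mean of 19.7 FPKM in these mRNA-enriched libraries and was highest in SN7 (41.4 FPKM). It also has a domain match to the ATP synthase alpha/beta family, and it was picked with its values known. Rubisco accumulation factor 1 (Unigene899_All), an assembly chaperone that was also picked with its values known, ranged from 12.8 FPKM in SN7 to 26.05 FPKM in ST4.

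The words for the Calvin cycle matched 112 Unigenes, among them ones named GAPCP1 and GAPCP2, whose part in the cycle was not checked. Of the 112, 68 were tested, and 45 of these had a log2 fold change above 0, with a median of 0.30. Among all Unigenes tested, 51.4% were above 0. At an unadjusted p under 0.05, non-trunking palms had more of 6 and less of 3 (13.2% of those tested, against 9.85% of all Unigenes). A fructose-bisphosphate aldolase (CL6338.Contig4_All) was the most abundant, with 643 to 1067 FPKM in trunking and 1247 to 1743 FPKM in non-trunking palms and a log2 fold change of 0.78 (edgeR adjusted p = 0.595). The smallest p belonged to CP12-2 (Unigene15255_All), a small protein that binds and holds back enzymes of the cycle in the dark. It stood at 383, 859 and 317 FPKM in ST1, ST4 and ST5 and at 89.3, 139 and 129 FPKM in SN7, SN8 and SN9, with a log2 fold change of -2.05 ± 0.40 (SE, edgeR adjusted p = 0.212). The 3 lower Unigenes of the count were all matched to CP12-2 (CL389.Contig1_All, CL389.Contig2_All and Unigene15255_All). The 6 higher ones included CL1493.Contig1_All, CL1493.Contig5_All, Unigene7712_All and Unigene8581_All, all matched to fructose-bisphosphate aldolase. Contigs of the same cluster are not independent of each other.

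Photorespiration, the pathway that recycles the product of oxygen fixation by Rubisco, had 59 Unigenes, of which 46 were tested. The log2 fold change was above 0 in 41 of them, with a median of 0.64, where 51.4% of all Unigenes tested were above 0. Several of the 46 are contigs of the same cluster, such as CL874 and CL8449, so they are not independent of each other. At an unadjusted p under 0.05, 5 Unigenes were higher and 0 lower (10.9% of those tested, against 9.85% of all Unigenes). This count was 1 without ST5, 2 without ST1 and 10 without ST4 or without SN8. The count over all Unigenes tested moved too. It was 3275 of 49129 without ST5 and 3756 of 49495 without ST1, and 4957 of 48585 without ST4 and 5907 of 49148 without SN8. The most abundant Unigene of the pathway was a glycolate oxidase (CL8449.Contig1_All, 366 to 590 FPKM in trunking and 572 to 827 FPKM in non-trunking palms, edgeR adjusted p = 0.686). The smallest p of the list was that of H protein 2 of the glycine cleavage system (CL4409.Contig2_All), which had 8.82 to 10.9 FPKM in trunking and 19.7 to 34.5 FPKM in non-trunking palms (log2 fold change 1.49, edgeR adjusted p = 0.185). Another contig of that cluster with the same name, CL4409.Contig1_All, had a log2 fold change of -9.7e-05.

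Carbonic anhydrases, which interconvert carbon dioxide and bicarbonate, had 27 Unigenes, mitochondrial forms included. Of 21 tested, with a median log2 fold change of 0.38, 5 were higher and 1 lower at an unadjusted p under 0.05 (28.6%, against 9.85% of all Unigenes). This count was 3 without ST1, SN7 or SN9. Over all Unigenes tested the count was 3756 of 49495, 3766 of 49894 and 4089 of 48447 without these palms. The abundant chloroplast form (CL4201.Contig5_All) stood at 979 to 1965 FPKM in trunking and 1056 to 2258 FPKM in non-trunking palms and had an edgeR adjusted p of 0.869, while the smallest p came from a rare alpha form (Unigene25696_All, 1.27 to 1.94 against 6.15 to 21.0 FPKM, edgeR adjusted p = 0.185). Its log2 fold change was 3.01. A second Unigene matched to the same protein, alpha carbonic anhydrase 7 (Unigene29049_All), went the other way, with a log2 fold change of -3.38 (edgeR unadjusted p = 0.0071). The antenna list of chlorophyll a-b binding proteins, light-induced like the small subunit, had 39 Unigenes with 37 tested and a median log2 fold change of 0.59. At an unadjusted p under 0.05, 3 were higher and 0 lower (8.11% of those tested, against 9.85% of all Unigenes). This count was 1 without ST5 or SN7 and 5 without SN8. Over all Unigenes tested the count was 3275 of 49129, 3766 of 49894 and 5907 of 49148 without these palms. Antenna protein 7 had both its most abundant Unigene (CL6752.Contig1_All, 817 to 1999 against 1473 to 2398 FPKM, edgeR adjusted p = 0.723) and the one of smallest p (CL7281.Contig1_All, 2.97 to 6.97 against 7.58 to 14.6 FPKM, edgeR adjusted p = 0.337). In the 5 lists, 0 Unigenes passed an adjusted p of 0.05 in edgeR, while DESeq2 gave 3 of 48 in Rubisco assembly, 4 of 73 in the Calvin cycle, 1 of 47 in photorespiration, 2 of 21 among the carbonic anhydrases and 0 of 37 in the antenna, each out of those with an adjusted p, against 2.22% of all Unigenes. Green leaf markers leaned the same way as most lists. Of the 63 green leaf Unigenes outside the antenna list, 61 were tested, and 43 had a log2 fold change above 0 with a median of 0.27. At an unadjusted p under 0.05, 4 were higher and 0 lower, where 9.85% of all Unigenes tested passed. The part of green tissue content in the values of the lists and of the members was not tested.

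**Figure D5:**
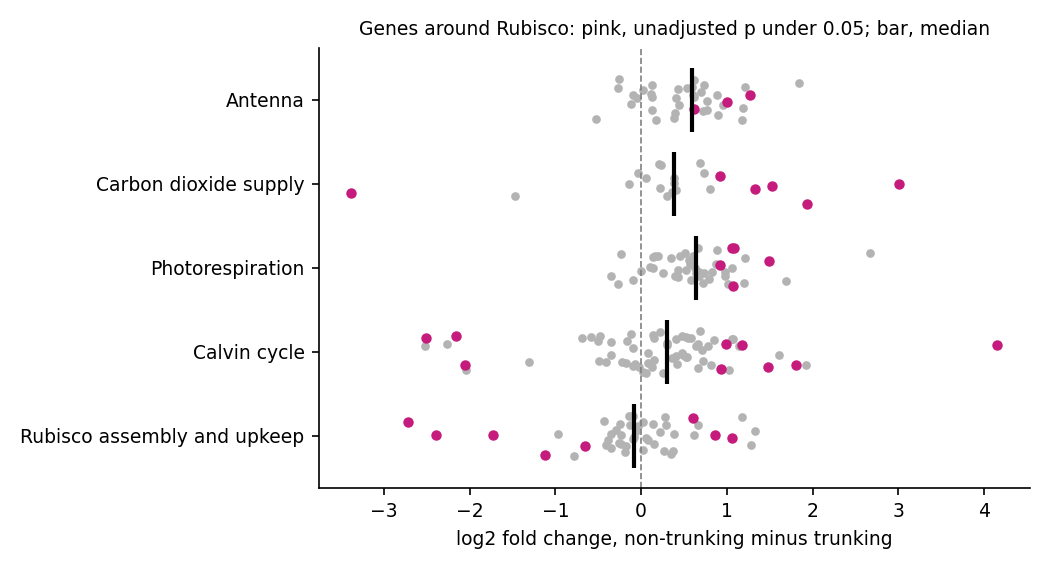
Log2 fold change (horizontal axis, non-trunking minus trunking) of every tested Unigene in the 5 lists, with a vertical bar at the median of each list and pink for an unadjusted p under 0.05 in edgeR. The medians run from -0.08 in Rubisco assembly and upkeep to 0.64 in photorespiration.

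A list of clock genes was read beside these levels. Of 97 Unigenes matched to clock proteins such as LHY, REVEILLE, GIGANTEA and the pseudo-response regulators, 84 were tested, and non-trunking palms had more of 14 and less of 16 at an unadjusted p under 0.05 (35.7%, against 9.85% of all Unigenes). They went both ways. The most abundant, an Adagio-like protein 3 (Unigene879_All), had 277 to 421 FPKM in trunking and 3.48 to 36.2 FPKM in non-trunking palms (edgeR adjusted p = 0.205). The GIGANTEA Unigene of smallest p (Unigene20400_All) had 36.2 to 53.9 FPKM in trunking and 7.63 to 11.8 FPKM in non-trunking palms (edgeR adjusted p = 0.161). In the other direction, an LHY contig (CL1173.Contig10_All, chosen with its values known) had 17.1 to 30.9 FPKM in trunking and 73.3 to 74.4 FPKM in non-trunking palms (edgeR adjusted p = 0.207). The part of the clock, or of the hour of sampling, in the levels of the small subunit and activase was not tested.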

How the data were processed

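Total RNA of leaf tissue was extracted by a CTAB protocol, enriched for mRNA and read on a BGISEQ-500 instrument (1 library per palm). The authors assembled the clean reads with Trinity, clustered contigs with TGICL, aligned reads to them by Bowtie2 and estimated levels by RSEM. The sources used here give no versions. Per the file headers, the deposited values are the expected count, an estimated count of fragments without normalization, the FPKM and the Unigene length. The smallest FPKM listed is 0.01, and a Unigene not listed in a library was set to 0. Samples were grouped by the phenotype in the labels, although 1 entry of the paper words the non-trunking samples as trunking.

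Files were joined in pandas 2.3.3 (Python 3.11.15, NumPy 2.4.6). Rounded expected counts went into edgeR 4.0.16 under R 4.3.3 (filterByExpr, TMM, quasi-likelihood test, two-sided, Benjamini-Hochberg adjustment over all 45928 Unigenes tested, threshold 0.05). The standard error is the log2 fold change divided by the root of F. Ratios and sums used exact permutation tests (SciPy 1.17.1), and figures Matplotlib 3.10.9. No library was a copy of another, since chi-square per degree of freedom was 34.4 or more in all 15 pairs. The labels do not say how the palms are related, and p-values measure only the spread between these samples. Fitting code was tested on simulated data with less spread between samples than these libraries (common biological coefficient of variation 0.497). That test therefore does not measure the power of the comparison here.

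All 13 members were named, and the other contigs of their clusters. In each of the 5 pathway lists, the most abundant Unigene and that of smallest p were named. Members and lists were chosen with earlier results of these data known. Alternatives were other scalings, filters, DESeq2 1.42.0, limma 3.58.1 on log2(FPKM + 1) and log2(FPKM + 0.1), sums per cluster, and leaving out each palm. No sequences are printed, since the files used here hold none.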

Additional observations from a re-analysis of the deposited data

How the results depend on the processing

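None of the 11 tested members passed an adjusted p of 0.05 under any alternative run, and CL3826.Contig1_All (0.27 to 1.02 with a palm left out) and CL2754.Contig4_All (0.21 to 1.01) kept their direction throughout. With a palm left out, the log2 fold change turned in CL2754.Contig2_All (-0.10 to 0.59), CL578.Contig1_All (-0.073 to 0.76), CL578.Contig3_All (-0.25 to 0.36), CL578.Contig4_All (-1.09 to 0.35) and CL578.Contig7_All (-0.22 to 0.71), and the difference of the ratio of small subunit to activase ran from -0.25 to 0.68. CL578.Contig3_All was also at -0.0047 with limma on log2(FPKM + 1) and -0.012 on log2(FPKM + 0.1), and with counts summed over CL578, which gives 1 value for the cluster, CL578.Contig4_All and CL578.Contig6_All took the value 0.22. The number of Unigenes with an adjusted p under 0.05 was 0 in edgeR, 1175 in DESeq2 and 4 in limma on log2(FPKM + 1); the cause was not tested.

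The counts at an unadjusted p under 0.05 moved with the setting, over all Unigenes and in the lists. Over all Unigenes tested they were 4526 of 45928 in the main run, 7691 of 99913 without a filter and 3919 of 45928 with library size alone. DESeq2 gave 6.52% of those with a p, and limma 4603 of 44252 on log2(FPKM + 1) and 4439 of 44252 on log2(FPKM + 0.1). Summed per cluster there were 2817 of 25629. With a palm left out they ran from 3275 of 49129 without ST5 to 5907 of 49148 without SN8. Rubisco assembly and upkeep had 8, 4 with counts summed per cluster and 4 to 6 with a palm left out. The Calvin cycle had 9, 14 without a filter, 17 with DESeq2, 16 with limma on either scale and 6 to 11 with a palm left out. Photorespiration had 5, 3 with library size alone, 8 without a filter, 10 with DESeq2, 11 with limma on either scale and 1 to 10 with a palm left out. Carbonic anhydrases had 6, and 3 to 6 with a palm left out. The antenna had 3, 1 summed per cluster and 1 to 5 with a palm left out. No paired analysis was possible because the groups share no replicate numbers. With a palm left out, the log2 difference ran from 0.13 to 0.72 for summed activase and from 0.35 to 0.91 for the small subunit. Depth limits CL2754.Contig6_All and Unigene54082_All, which had too few fragments to be tested.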

Other observations

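Some Unigenes named after either protein in other databases lay outside the rule, because their SwissProt cell is empty. Unigene7284_All (667 nt) is matched to an oil palm small chain in the protein and nucleotide databases, with a protein E-value of 2.3e-06. It stood at 80.1 FPKM in ST1, 322 FPKM in ST4 and 29.4 FPKM in ST5, and at 41.95 FPKM in SN7, 139 FPKM in SN8 and 453 FPKM in SN9. The highest of these values was 15.4 times the lowest, and SN7, which was the highest palm for CL3826.Contig1_All, was the second lowest here. The groups overlapped (log2 fold change 0.54, SE 0.98, edgeR adjusted p = 0.895).

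Of the contigs of CL2754 without a protein match, CL2754.Contig3_All (480 nt) varied most, from 3.27 FPKM in ST5 to 117 FPKM in SN9. Its log2 fold change was 1.94 (SE 0.82, edgeR adjusted p = 0.511). CL2754.Contig5_All (238 nt) had 3.49, 9.58 and 2.83 FPKM in ST1, ST4 and ST5 and 8.98, 32.3 and 46.6 FPKM in SN7, SN8 and SN9, with a log2 fold change of 2.45 (SE 0.68, edgeR adjusted p = 0.338). CL2754.Contig1_All (236 nt) lay between 1.28 and 4.25 FPKM, with a log2 fold change of 1.19 (edgeR adjusted p = 0.518). It had few fragments, 4, 8 and 5 in ST1, ST4 and ST5 and 12, 13 and 12 in SN7, SN8 and SN9. In CPM, the non-trunking palms all lay above the trunking palms for Contig5 and Contig1, but not for Contig3. Groups failed to overlap in 17.3% of all Unigenes tested, 8.71% of them higher in non-trunking palms. The unadjusted edgeR p of Contig5 was 0.0091, where 9.85% of all Unigenes tested had one under 0.05. These 3 contigs are matched to activase transcripts in the nucleotide database. CL3826.Contig2_All (208 nt), the other contig of the small subunit cluster, had 7 fragments in ST4, 2 in SN7 and 3 in SN9 and was not listed in the other 3 palms. CL5970.Contig1_All (475 nt), matched to a small chain in the nucleotide database only, lay between 4.15 and 10.2 FPKM (log2 fold change 0.46, edgeR adjusted p = 0.794). Unigene53988_All (475 nt), matched to activase in the same database, was listed only in SN7, with 10 fragments, and in SN9, with 1.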
